A study of Mus musculus with 54 samples.

Results

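Cytosolic ribosomal protein genes were followed through 3 germ cell preparations of CTCF and BORIS mutant mice. CTCF is a chromatin-binding zinc finger protein of every cell, and BORIS, encoded by Ctcfl, is its germ cell paralogue. The group was every gene symbol made of Rpl, Rps or Rplp, a number and at most 1 further lower-case letter that stands in both deposited count tables, which gave 80 of 23284 genes. The group was selected on measured values, the higher levels of some of these genes in BORIS KO than in WT round spermatids, so that contrast, and those sharing its libraries, are described below without a test. All mice were C57BL/6 and 3 months old, and 4 mice went into each preparation. The genotypes were WT, CTCF HET (Ctcf+/-, 1 inactivated allele), BORIS KO (Boris-/-) and the compound mutant, CM (Ctcf+/-Boris-/-), bred from CTCF HET females and BORIS KO males. The mutations were carried by every cell of the animal, and the CM group has the CTCF HET genotype in full plus the BORIS loss. Whole testis stood for germ cell-enriched suspensions that still held somatic cells, and round spermatids (RS) and spermatocytes (SC) were sorted from such suspensions, with stated purities of 93.7% for RS and 81.5% for SC. There were 3 libraries in each group, but 2 of WT SC. ChIP-seq peak lists of CTCF, BORIS, RNA polymerase II (Pol2) and H3K4me3, 1 list per antibody and genotype, came from whole testis.

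Each ribosome joins a small subunit, which reads the mRNA, to a large subunit, which forms the peptide bond. Most of its proteins are encoded by single intron-bearing genes that share a mode of translational control: the mRNA begins with a C followed by pyrimidines, the 5′ terminal oligopyrimidine (TOP) tract, through which growth signalling switches the whole set on and off. These mRNAs are abundant, and mammalian genomes hold many processed copies of them, that is, intronless copies made by reverse transcription. In meiosis the X chromosome is silenced, and a few autosomal paralogues, such as Rpl10l and Rpl39l, are used in male germ cells beside or in place of X-linked ribosomal protein genes.

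Total counts were 10437683 to 42055813 in the whole testis libraries, 47740650 to 98545423 in RS and 53337530 to 88946702 in SC. The 80 genes made up 0.506 to 1.14% of each whole testis library, 0.326 to 0.558% of each RS and 0.454 to 0.792% of each SC library. Genes with at least 1 count numbered 12018 to 13406 in the CTCF HET SC libraries and 17631 to 17970 in WT and BORIS KO SC. Levels are given as CPM, read counts scaled to a common library size with TMM (trimmed mean of M-values) factors, and they cannot be set against each other between whole testis and sorted cells except side by side, since rRNA-depleted RNA was sequenced in the former and poly(A) RNA in the latter. Ctcf mRNA was 48.7, 31.3 and 29.4 CPM in WT RS and 33.4, 21.6 and 24.6 in CTCF HET RS. In SC it went against the label, with 35.2 and 33.3 CPM in WT and 44.4, 52.4 and 32.3 in the libraries labelled CTCF HET, and 1 CM library each of RS (172) and SC (85.9) was above every WT library of its kind. In whole testis it was lower in the CTCF HET libraries (27.6, 30.2 and 22.3) than in WT (47.01, 39.9 and 40.7). Ctcfl was 0.531, 0.582 and 0.688 CPM in WT testis and 0.207, 0.397 and 0.165 in BORIS KO testis, but 2.84, 5.12 and 3.38 in WT RS and 1.97, 2.09 and 2.39 in BORIS KO RS, and it was too low in WT SC (0.0789 and 0.0662) to check the label there. Sertoli, Leydig and macrophage marker sums stayed at or below 13.4 CPM in all sorted libraries. Round spermatid markers (Acrv1, Tnp1, Tnp2, Prm1, Prm2 and Spaca1) summed to 910.1 to 1104 CPM in WT RS and 28.2 to 28.9 in WT SC. Spermatocyte markers (Sycp1, Sycp3, Spo11, Hormad1, Piwil1 and Pgk2) summed to 979 to 1234 in WT RS and 2869.8 to 3095 in WT SC. Each sum was higher in the cell type of its name. Single spermatocyte markers differed: by the test below, Pgk2 was higher and Piwil1 lower in RS than in SC, in both CTCF HET and CM. Red blood cell markers summed to 16.0 to 43.0 CPM in whole testis and to at most 0.658 in sorted cells. Per the study's methods the whole testis libraries came from independent cell preparations. For the replicates of RS and SC the sources used here do not say so, and p-values there measure only the spread between these libraries, which may be technical.

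A pyrimidine run stood at the start of some members. Of the 80 members, 59 had a start in the RefSeq promoter table (GRCm38.p6), and 22 of these (37.3%) began, within 5 bases of the start, with a C opening a run of at least 7 pyrimidines, against 7.64% of all 27025 genes. The run was searched on the gene's own strand as C followed by C or T only. With at least 5 letters the shares were 47.5 and 21.2%, and with at least 8 letters 33.9 and 5.17%. Below are 4 members with such a run and then 5 without one, chosen because their RNA levels carry the comparisons below. Each window has 14 bases either side of the annotated start, which is the middle letter, and capitals mark the pyrimidine run.
Rps6 (chr4:86857353-86857381, minus strand): agcggaagtcgggcCTCTTTTTCgtgacg
Rpl35 (chr2:39005117-39005145, minus strand): ggccccgccctttcCTCTTTCTCTCgaac
Rpl38 (chr11:114668566-114668594, plus strand): gcggaagcctcgttCTTTCCCCgttctct
Rpl18 (chr7:45718057-45718085, plus strand): gcgtctcgcaggccgCTCTTTCCCCgccc
Rpl10l (chr12:66284387-66284415, minus strand): ttggcctccattttgcggctggcggtggg
Rpl39l (chr16:10170214-10170242, plus strand): tcccaggcctttccggatttccggtggtc
Rpl10 (chrX:74270802-74270830, plus strand): ttgttacagtggaagataggccgcctata
Rps4x (chrX:102189377-102189405, minus strand): tgaggctgggcggagcaacccaggctcca
Rpl23 (chr11:97782425-97782453, minus strand): cgaggtccggtcacgtggctgagtgggcg
Rps6, the small subunit protein that growth signalling phosphorylates, and Rpl35, Rpl38 and Rpl18 of the large subunit show the tract at or next to the start. No such run opens within 5 bases of the annotated start of the germ cell paralogues Rpl10l and Rpl39l, nor of Rpl10 and Rps4x on the X chromosome or of Rpl23. The window of Rpl39l does hold a run of 7 pyrimidines opened by a C, but farther before the start than that limit. An annotated start can lie some bases from the one used in testis.

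The genes are short and most have close copies elsewhere in the genome. In the mm9 gene models, which hold 79 members (not Rpl41), the median transcript was 775 bp long (345 to 3721) with a coding length of 459 bp and a GC content of 51.61% (41.26 to 60.89), and 51 of 79 were above the median of all genes, 49.61%. In the mm9 genome 73 of the 79 had at least 1 other stretch that matched at least 95% of letters over at least 80% of their coding sequence, with a median of 6 and a maximum of 56. The 6 without one included Rpl8, Rpl39l, Rpl3l and Rps27l. The counting tool and its treatment of reads that match several places are not given in the sources used here, so reads could be split between a gene and its copies or dropped, and the level of any one member with copies is uncertain.

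Levels were compared between members per kb of transcript, and they differed widely. In WT testis the highest were Rps24 with 702.7 CPM per kb, Rps14 with 673, Rpl32 with 489.6, Rplp0 with 461 and Rpl39l with 332. Rps24, Rps14 and Rpl32 are structural proteins of the 2 subunits, and Rplp0 anchors the stalk that recruits elongation factors. The lowest were Rpl3l (0.343), a paralogue known from muscle, Rpl34 (0.284) and Rpl26 (0.150). The median was 71.2 CPM per kb in WT testis, 27.7 in WT RS and 51.5 in WT SC, and 9, 16 and 11 members lay under 10. In the table of sorted cells Rps24 was at 550.2 in WT RS and 683 in WT SC, Rps14 at 17.3 and 33.3, and Rplp0 at 61.4 and 135.5. Rpl10l was at 144.9 CPM per kb in WT testis, 268.8 in WT RS and 206.9 in WT SC. Library kits and scaling differed between the 2 tables, so these are values side by side with no comparison drawn.

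Some members were near 0 although their promoters carried active marks. Rpl26 had 0 to 7 counts in every RS and SC library, and Rpl34 had 0 to 4 counts in RS outside BORIS KO and 0 to 11 in SC outside BORIS KO. Rps27 had 0 to 129 counts in the sorted libraries. All 3, and Rpl30, nevertheless had H3K4me3 and Pol2 peaks over their starts in WT testis, with Pol2 scores of 2831.33 at Rpl30, 2524.54 at Rps27, 686.87 at Rpl34 and 400.44 at Rpl26, against a median of 431.92 for Pol2 peaks at genes. Each has 5 to 13 copies at 95% identity or more. How far the counting took reads from them was not tested.

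The X-linked members, Rps4x, Rpl10, Rpl36a and Rpl39, were low in germ cells, whereas the paralogues Rpl10l and Rpl39l were high. Together the 4 X-linked genes summed to 14.02 to 20.3 CPM in WT testis, to 0.914 to 1.52 in WT RS and to 0.146 to 0.237 in WT SC. Rps4x had 0 counts in all 3 WT RS and both WT SC libraries. Rpl10l stood at 228 and 195 CPM in WT SC and 237, 288 and 298 in WT RS, and Rpl39l, whose X-linked counterpart Rpl39 lines the tunnel through which the new protein leaves, at 175 and 183 in SC and 175, 155 and 175 in RS. Rpl36al, the autosomal paralogue of Rpl36a, which the symbol rule does not take in, was at 19.7 CPM per kb in WT RS and 23.2 in WT SC, below the member medians of 27.7 and 51.5. Rps27l, a paralogue of Rps27, was at 15.7 and 13.9 CPM in WT SC and 11.4, 15.6 and 15.6 in WT RS. Rpl3l was at or below 1.19 CPM in every library.

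**Figure D1:**
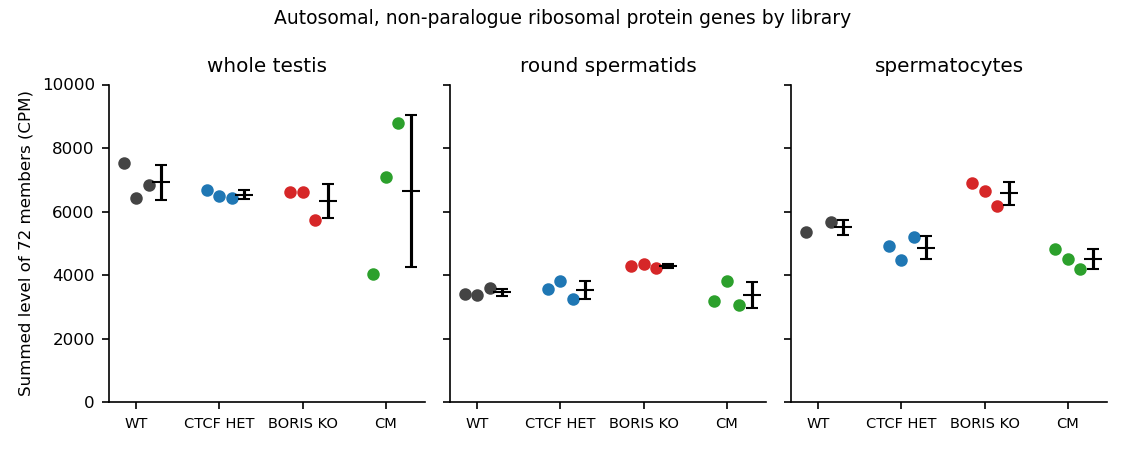
Summed level (CPM after TMM scaling, vertical axis from 0) of the 72 members that are neither X-linked nor diverged paralogues. Each point is 1 library, and the mean with its SD stands beside each genotype, for whole testis, RS and SC in separate panels. BORIS KO libraries of RS and SC sit above all others of their panel, and the 3 CM testis libraries spread from 4052 to 8773 CPM.

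Summed over the 72 members that are neither X-linked nor diverged paralogues, the whole testis level was 6932 ± 549.9 CPM (SD, n = 3) for WT, 6535 ± 133 for CTCF HET, 6332 ± 522 for BORIS KO and 6641 ± 2394 for CM. The CM libraries, at 4052, 7097 and 8773 CPM, spread on both sides of the WT range of 6444 to 7528. The RS sums were 3459 ± 122 for WT, 3547 ± 279.7 for CTCF HET, 4289 ± 60.5 for BORIS KO and 3366 ± 409 for CM, and those of SC, in the same order, 5506 ± 227 (n = 2), 4868 ± 359, 6575 ± 373 and 4519 ± 314. The plot of summed levels shows the BORIS KO libraries of both sorted cell types above the other genotypes, while in whole testis all 4 genotypes overlap. In bulk libraries, fewer cells of a type and less RNA per cell cannot be told apart.

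In whole testis, a comparison that addresses what each loss does to the mixed germ cell population, no member passed the test with either single mutation until the replicate block was added. A gene was called at an adjusted p below 0.05 in edgeR's quasi-likelihood test with Benjamini-Hochberg adjustment over all genes. In CTCF HET against WT none of 76 tested members was called (0.00621% of all genes were called), none had an unadjusted p below 0.05 (2.63% of all genes did), DESeq2 called none (0.0186% of all genes), and the median member log2 fold change was -0.05. In BORIS KO against WT it was also none (0.0551% of all genes), with 5 members (6.58%) at an unadjusted p below 0.05, against 16.6% of all genes, none by DESeq2 (2.36% of all genes) and a median of -0.02. In whole testis the replicate numbers pair the libraries, and with replicate as a block 4 members fell in BORIS KO, among them Rps24 (-0.56 on the log2 scale, adjusted p = 0.0249), Rpl9 and Rpl11, where 6.59% of all genes were called and 3.57% were lower. The pairing shows in single members: Rps14 was highest in the replicate numbered 1 of WT (635, 400.3 and 343 CPM), of CTCF HET (671, 396 and 243) and of BORIS KO (579, 240.4 and 217).

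In CM testis, 3 of the 4 X-linked ribosomal protein genes rose. Of 76 tested members 4 were higher than in WT and none lower, against 25.2% of all genes called, 16.4% higher and 8.8% lower. Rps4x, an X-linked small subunit protein, was 7.34, 6.08 and 4.99 CPM in WT and 25.7, 20.1 and 44.97 in CM (log2 fold change 2.26, SE 0.35, adjusted p = 0.0151, 4.81-fold). Rpl10, needed for the last steps of large subunit assembly, was 8.82, 6.73 and 4.30 in WT and 29.4, 16.1 and 38.3 in CM (log2 fold change 2.04, SE 0.38, adjusted p = 0.0159). Rpl36a, a large subunit protein, was 1.45, 1.36 and 1.20 in WT and 4.16, 3.73 and 5.84 in CM (log2 fold change 1.73, SE 0.33, adjusted p = 0.016). For all 3 genes every CM library was above every WT library. Rpl39 was 2.65, 5.05 and 3.53 CPM in WT and 5.72, 6.66 and 20.7 in CM, which missed the threshold (log2 fold change 1.52, SE 0.54, adjusted p = 0.0673) but passed it with the replicate block (adjusted p = 0.0158). The 4th member called was Rpl10a (log2 fold change 0.97, SE 0.30, adjusted p = 0.0465), a gene on chromosome 17. Its call was lost after the correction for transcript GC described below. The germ cell paralogues were spread widely, Rpl10l at 46.1, 170.2 and 157 and Rpl39l at 125, 236 and 213 CPM in CM, and neither passed the test (adjusted p = 0.675 and 0.221).

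Against CTCF HET, which shares the missing Ctcf allele, the 4 X-linked genes were higher in CM testis and no other member was called. Rps4x was 5.56, 4.74 and 3.16 CPM in CTCF HET (log2 fold change 2.70, SE 0.39, adjusted p = 0.02, 6.48-fold). Rpl10 (log2 fold change 2.11, SE 0.38, adjusted p = 0.0216), Rpl36a (log2 fold change 1.93, SE 0.35, adjusted p = 0.0216) and Rpl39 (log2 fold change 1.99, SE 0.53, adjusted p = 0.0391) followed. Of all genes 15.5% were called, 10.6% higher and 4.88% lower. With the replicate block 8 members were higher, adding Rps3a, Rpl5, Rpl10a and Rps27a, and 5 lower, Rpl29, Rps20, Rplp0, Rpl37 and Rpl39l, against 43% of all genes. Both comparisons share the CM libraries, and both turn on single ones: without CM replicate 3 no member was called in either, and without CM replicate 1 there were 20 against WT (24.1% of all genes) and 16 against CTCF HET (15.2%). Against WT none was called without WT replicate 2 or WT replicate 3, and against CTCF HET none without CTCF HET replicate 2 or CTCF HET replicate 3.

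Marker sums moved with these results. In CM testis the Leydig markers (Cyp17a1, Cyp11a1, Hsd3b1, Star and Insl3, all 5 detected) summed to 1735 to 3383 CPM, against 342 to 533 in WT, the 5 Sertoli markers in the table to 502 to 1034 against 187 to 302, the 5 macrophage markers to 137 to 492 against 37.0 to 107, and the 6 spermatogonia markers to 114 to 414 against 48.4 to 70.2. Round spermatid markers summed to 3787 to 11205 CPM against 11982 to 19381 in WT, and spermatocyte markers to 1024 to 1643 against 2206 to 2577. Their part in the rise of the X-linked members was not tested. In BORIS KO testis, where the same X-linked genes summed to 23.0 to 26.9 CPM against 14.02 to 20.3 in WT, Leydig markers summed to at least 646 and Sertoli markers to at least 369 CPM.

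**Figure D2:**
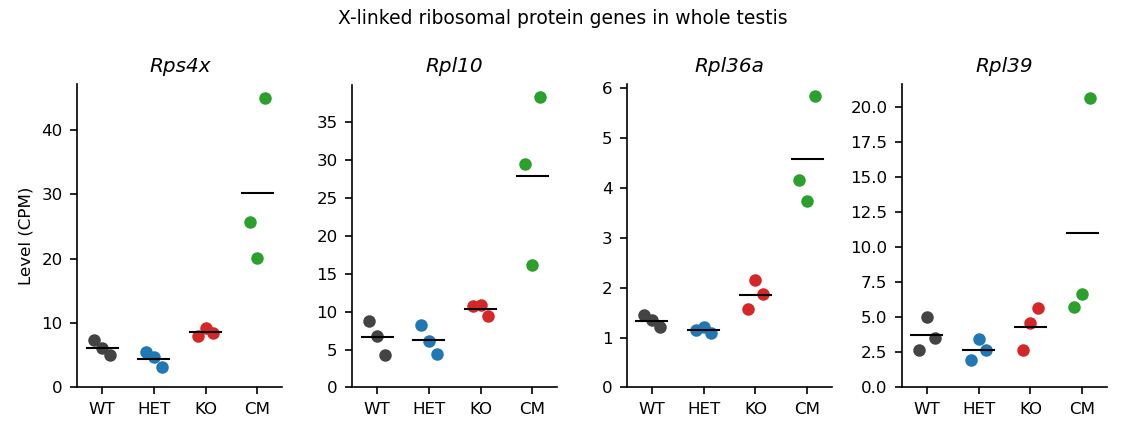
Level (CPM after TMM scaling, vertical axis from 0) of the 4 X-linked members Rps4x, Rpl10, Rpl36a and Rpl39 in the 12 whole testis libraries, 1 panel per gene. Points are libraries and lines are group means. For Rps4x, Rpl10 and Rpl36a the 3 CM points lie above every point of the other genotypes.

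In spermatocytes, most ribosomal protein mRNAs were higher in BORIS KO. Of 76 tested members 53 rose in BORIS KO SC and 5 fell, with a median log2 fold change of 0.46, in a comparison in which 57.2% of all genes were called (29.1% higher, 28.1% lower) around a median of 0.02. The libraries of the 2 genotypes did not overlap for 54 members that were above WT and 5 below it, against 37.3 and 35.5% of all genes. Both subunits took part: 22 of 30 tested small subunit members rose and 2 fell, 29 of 43 large subunit members rose and 3 fell, and of the P stalk Rplp1 and Rplp2 rose while Rplp0 was at 174 and 194 CPM in WT and 269.6, 153 and 138 in BORIS KO (adjusted p = 0.971). Rpl8, which lies next to the peptide-bond-forming centre, was 103 and 120.2 CPM in WT and 233, 218 and 203 in BORIS KO (log2 fold change 0.96, SE 0.08, adjusted p = 3.65e-06). Rps14, a small subunit protein, went from 21.3 and 24.3 to 72.8, 66.7 and 56.7 (log2 fold change 1.52, SE 0.11, adjusted p = 4.7e-06). Rpl18 went from 31.7 and 35.7 to 59.1, 58.5 and 52.9 (log2 fold change 0.75, SE 0.08, adjusted p = 7.73e-06). In each of the 3 genes the lowest BORIS KO library was well above the highest WT library. The 53 include Rpl34, which had 7 counts in each WT library and 29, 40 and 11 in BORIS KO and passed the filter on low counts in SC only where BORIS KO libraries entered, so that its fold is not given. Wide changes, named after their values were seen, were those of Rpl13 (27.02 and 32.9 CPM in WT and 111, 94.4 and 77.4 in BORIS KO) and Rpl27a (11.3 and 12.8 in WT and 44.2, 30.9 and 27.03 in BORIS KO), with log2 fold changes of 1.65 and 1.496.

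The 5 members that fell in BORIS KO SC included the germ cell paralogue of Rpl10. Rpl10l was 228 and 195 CPM in WT and 119, 125 and 122 in BORIS KO (log2 fold change -0.80, SE 0.07, adjusted p = 3.83e-06). Rpl23, at the interface of the subunits, was 385 and 344 in WT and 214, 217 and 220.4 in BORIS KO (log2 fold change -0.75, SE 0.07, adjusted p = 3.17e-06), and Rps6 was 111 and 113 in WT and 83.4, 87.9 and 89.6 in BORIS KO (log2 fold change -0.37, SE 0.06, adjusted p = 0.000162). Rpl4 fell as well (log2 fold change -0.34). Rpl39l was 175 and 183 CPM in WT and 201, 209 and 203 in BORIS KO (log2 fold change 0.18, SE 0.06, adjusted p = 0.0163), a call that was lost when all genotypes shared 1 fit, when the replicate number was a block, and when WT replicate 1 or BORIS KO replicate 2 was left out. Over the alternatives its log2 fold change ran from 0.16 to 0.61 and its adjusted p up to 0.618.

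GC content and germ cell markers moved with these changes. Spermatocyte markers summed to 2593 to 2739 CPM in BORIS KO SC, against 2869.8 to 3095 in WT SC, and round spermatid markers to 31.1 to 50.5 against 28.2 to 28.9, and their part in the result was not tested. The mean GC content of the counted transcripts was 48.1 to 48.5% in WT SC and 49.6 to 49.7% in BORIS KO SC, and over all genes the median log2 fold change climbed from -0.55 in transcripts under 42% GC to 0.65 in those over 57%. Members lay above all genes in every GC bin with at least 4 of them, at 0.12, 0.13, 0.37, 0.29, 0.69 and 0.85 in bins of rising GC in which all genes had medians of -0.38, -0.23, -0.04, 0.19, 0.42 and 0.65. After a correction that removes the trend with GC from every library, 47 members were higher and 7 lower, with a median of 0.35, against 40.8% of all genes. The correction took Rpl8 from 0.96 to 0.40 and Rps14 from 1.52 to 1.14, and Rpl35 from 0.49 to 0.02 (adjusted p = 0.862). Members' log2 fold changes increased with GC across the 75 with both values (Spearman's rho 0.40) and not with their number of genomic copies (-0.03), as a description over genes that share libraries. In a fit with all 4 genotypes, which share 1 estimate of the spread, 19 members were higher and 2 lower, or 27.3% of the 77 tested against 14.5% of all genes, and Rps6 was no longer called.

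**Figure D3:**
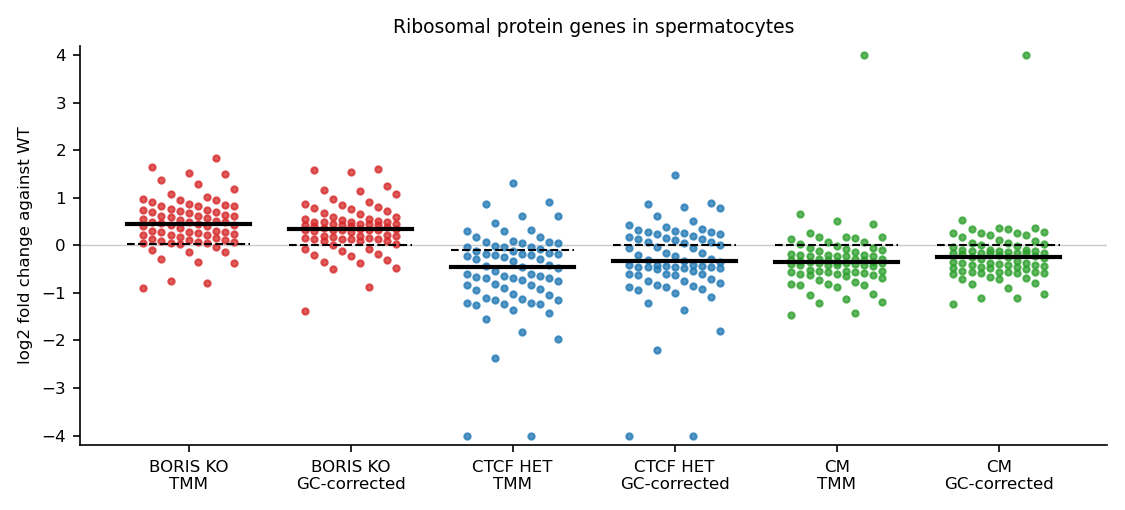
Log2 fold change against WT of the tested members in BORIS KO, CTCF HET and CM SC, with TMM scaling and after GC correction. Each point is 1 member, thick lines are member medians and dashed lines the medians of all genes, and points beyond the axis are drawn at its end (2 in CTCF HET, 1 in CM). BORIS KO members centre on 0.46 before and 0.35 after the correction, and those of the libraries labelled CTCF HET and CM lie mostly below 0.

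The SC libraries labelled CTCF HET went the other way. Of 74 tested members 24 were lower than in WT and 5 higher, with a median log2 fold change of -0.46 beside -0.09 for all genes, and 15.5% of all genes were called (6.77% higher, 8.76% lower). All 3 P stalk proteins, which recruit the elongation factors, were lower. Rplp0 was 174 and 194 CPM in WT and 75.3, 69.7 and 86.4 in CTCF HET (log2 fold change -1.25, SE 0.11, adjusted p = 0.00388), with Rplp1 at -1.22 and Rplp2 at -1.83 on the log2 scale. Rpl35, near the exit of the peptide tunnel, was 58.2 and 61.7 in WT and 11.8, 8.23 and 14.8 in CTCF HET (log2 fold change -2.37, SE 0.23, adjusted p = 0.00388). Rpl7a was 120.1 and 147 in WT and 52.7, 60.3 and 67.1 in CTCF HET (log2 fold change -1.15, SE 0.14, adjusted p = 0.00565). No CTCF HET library reached a WT library in any of these genes. The 5 higher members included Rpl23, with 385 and 344 CPM in WT and 754, 572 and 659.8 in CTCF HET (log2 fold change 0.86, SE 0.13, adjusted p = 0.00811), Rpl10l with 328, 329 and 315 in CTCF HET (log2 fold change 0.62, SE 0.10, adjusted p = 0.00988), Rpl22 with 19.4 and 20.3 in WT and 39.8, 32.6 and 39.1 in CTCF HET (log2 fold change 0.91, SE 0.16, adjusted p = 0.0117) and Rpl14 (0.61). Rpl23 and Rpl10l thus lay above WT here and below it in BORIS KO SC, in comparisons that share the 2 WT libraries.

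Spermatocyte markers summed to 3268 to 3324 CPM in these CTCF HET libraries and round spermatid markers to 46.4 to 73.97, and their part was not tested. The libraries also had the fewest genes with counts and a lower transcript GC, 47.3% in each. After the GC correction 13 members were lower and 5 higher, with a median of -0.34, against 6.81% of all genes, and the 3 P stalk genes were still among the lower ones. The count rested on single libraries: none was called without CTCF HET replicate 2 (0.0073% of all genes), 17 without WT replicate 2 (5.84%) and 31 without CTCF HET replicate 3 (22.7%). Rpl10 and Rpl30 had 0 counts in all 3 CTCF HET libraries, against 14 and 8 counts of Rpl10 and 22 and 25 of Rpl30 in WT. Rpl10 failed the low-count filter in this comparison. Rpl30 and Rpl3l passed it only through WT, so they could count only as lower.

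In the SC libraries labelled CM no member of 76 passed the test in edgeR, in which 0.604% of all genes did, although the member median lay below 0, as in CTCF HET. The median log2 fold change was -0.36 beside 0.01 for all genes, 26 members (34.2%) had an unadjusted p below 0.05, 4 higher and 22 lower, against 29.8% of all genes, and DESeq2 called 2 higher and 18 lower (21.9% of all genes). For 45 members all 3 CM libraries were below both WT libraries and for 5 above, against 31.5 and 22.8% of all genes. Rpl36a, at 0.0136 CPM per kb in WT SC, is among the 76 but passed the low-count filter only through the CM libraries. It could therefore count only as higher in these tallies. Rplp0 was 83.4, 71.8 and 44.3 CPM and Rpl35 34.1, 12.1 and 17.1 in CM. Replicate 1, the library with high Ctcf, was nearest to WT in Rpl8 (93.7, 49.4 and 41.98 CPM), and without it 45 members (59.2%) were called, 3 higher and 42 lower, against 38.9% of all genes. Transcript GC was 47.0 to 47.8% in these libraries, and after its correction 2 members were called, both lower and Rplp0 (-1.24) among them (2.75% of all genes). Spermatocyte markers summed to 3600 to 4997 CPM in CM SC, against 2869.8 to 3095 in WT SC. Spermatogonia markers summed to 8.82 to 13.8 against 3.43 to 3.73, and round spermatid markers to 24.9 to 91.5 against 28.2 to 28.9. Their part was not tested. Against CTCF HET, none of 73 tested members was called in CM SC by edgeR (0.318% of all genes), with 15 (20.5%) at an unadjusted p below 0.05 against 14.6% of all genes, and 2, Rpl10l and Rpl41, lower in DESeq2 (3.97%).

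**Figure D4:**
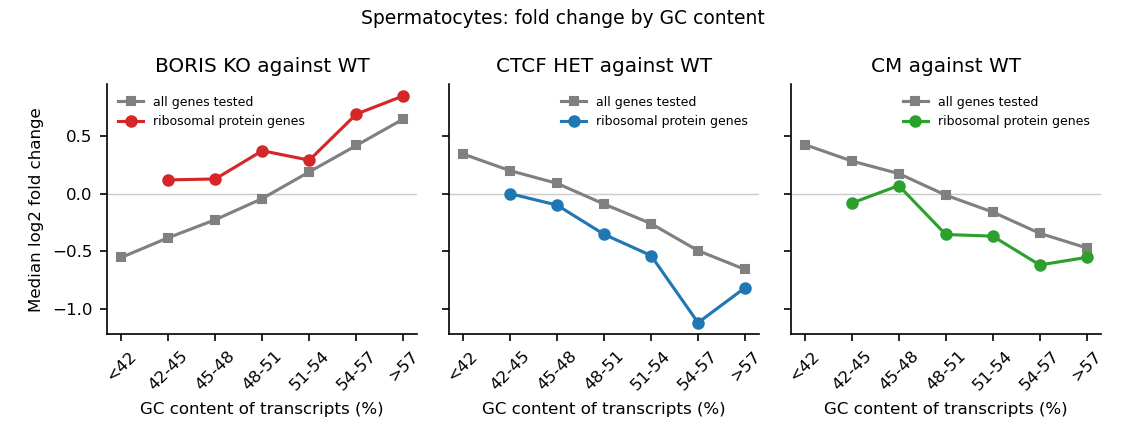
Median log2 fold change against WT (vertical axis) by GC content of the transcript in percent (horizontal axis), for all genes and for members, in BORIS KO, CTCF HET and CM SC, 1 panel each. Member points are drawn for bins with at least 4 members. Over all genes the medians climb with GC in BORIS KO and fall with it in CTCF HET and CM.

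The BORIS KO round spermatids, whose rises the choice of genes used, are given as a description. The median member log2 fold change against WT was 0.77, or 0.59 after GC correction, beside -0.01 for all genes, and 62 of 76 tested members were above 0. All BORIS KO libraries were above all WT libraries for 54 members and below for 8, where 30.6 and 33.6% of all genes were so separated. Apart from Rpl34, the highest were Rps14, Rpl15, Rpl13 and Rpl27a and the lowest Rpl4, Rpl10l and Rpl23. Rps14 was 16.2, 8.52 and 10.7 CPM in WT and 78.6, 79.9 and 58.8 in BORIS KO, a log2 fold change of 2.66. Rpl13 was 17.8, 13.8 and 14.8 in WT and 83.5, 76.1 and 67.5 in BORIS KO (2.33), Rpl15 2.57, 1.80 and 1.61 in WT and 10.2, 11.5 and 8.30 in BORIS KO (2.35), and Rpl27a 6.56, 6.68 and 5.76 in WT and 31.1, 28.6 and 25.9 in BORIS KO (2.21). Rpl34 had 3, 0 and 1 counts in WT and 23, 18 and 20 in BORIS KO, too few for a fold. It is among the 76 members but passed the low-count filter in RS only where BORIS KO libraries entered. Rpl23 was 291, 516 and 545 CPM in WT and 139, 139 and 150.3 in BORIS KO (-1.62), Rpl10l 237, 288 and 298 in WT and 106, 111 and 118 in BORIS KO (-1.27), and Rpl4 277, 369 and 374 in WT and 219.9, 222 and 233 in BORIS KO (-0.56). Rps14, Rpl13 and Rpl27a were also among those higher in BORIS KO SC, and Rpl23, Rpl10l and Rpl4 among those lower there. Counted transcripts had 47.4 to 48.03% GC in WT RS and 49.9 to 50.02% in BORIS KO RS, and over all genes the median climbed from -0.99 under 42% GC to 1.09 over 57%. After the correction Rps14 was at 2.03, Rpl13 at 1.48, Rpl15 at 3.04 and Rpl27a at 2.40. Spermatocyte markers summed to 649 to 694 CPM in BORIS KO RS, against 979 to 1234 in WT RS, and their part was not tested. The RS libraries labelled CTCF HET and CM had member medians of 0.23 and 0.00 against the same WT libraries.

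Neither WT nor BORIS KO libraries enter the comparison of CM with CTCF HET in RS, and there none of 76 members was called by edgeR, nor was any gene (0% of all genes). Of the members 21 (27.6%), 6 higher and 15 lower, had an unadjusted p below 0.05, against 21.7% of all genes, and DESeq2 called Rpl14, Rpl36a and Rpl22 higher and Rplp0 lower (10.3% of all genes). The 3 higher ones stood out in 1 library: Rpl14 was 8.28, 10.7 and 7.42 CPM in CTCF HET and 11.1, 46.9 and 19.7 in CM, Rpl22 15.6, 15.5 and 14.9 in CTCF HET and 17.5, 52.7 and 31.6 in CM, and Rpl36a 0.888, 7.09 and 0.485 in CM. In that library, CM RS replicate 2, the X-linked members summed to 15.6 CPM, against at most 3.00 in the other 11 RS libraries, and the spermatogonia markers (Kit, Stra8, Dmrt1, Zbtb16, Uchl1 and Sohlh1) to 353 CPM, against 18.4 to 37.8 in the other 3 genotypes. Without CM RS replicate 1, 15 members (19.7%) were called, 5 higher and 10 lower, against 20.9% of all genes. Round spermatid markers summed to 382 to 572 CPM in CM RS, against 649 to 706 in CTCF HET RS and 910.1 to 1104 in WT. Spermatocyte markers summed to 1141 to 1644 CPM in CM RS, against 702 to 855 in CTCF HET RS, and their part was not tested.

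Between the cell types, the median member was lower in round spermatids than in spermatocytes in each genotype. In WT the median log2 difference, RS minus SC, was -0.73 and in BORIS KO -0.46, both as a description because these RS libraries were used by the choice of genes. In the libraries labelled CM 9 of 76 members were lower in RS and none higher, with a median of -0.39, against 27.9% of all genes called (16% higher, 11.9% lower), so the members' share of lower calls, 11.8%, lay near that of all genes. Rps27a, made as a fusion with ubiquitin, was 13.4, 14.1 and 12.04 CPM in RS and 49.8, 37.8 and 38.2 in SC (log2 fold change -1.67, SE 0.26, adjusted p = 0.0037). Rpl11, which with Rpl5 binds the 5S rRNA, was 39.02, 28.6 and 32.9 in RS and 68.4, 64.3 and 58.8 in SC (log2 fold change -0.94, SE 0.21, adjusted p = 0.0126), and Rpl17 was 86.6, 88.3 and 58.02 in RS and 178, 130.2 and 132 in SC (log2 fold change -0.91, SE 0.24, adjusted p = 0.0278). The 9 became 17 without CM RS replicate 2 (34.9% of all genes) and 1 to 4 without any other library, and Rpl11 and Rpl17 were not called without CM SC replicate 2 or CM RS replicate 3.

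In the libraries labelled CTCF HET, 15 of 74 members were higher in RS than in SC and 23 lower, with a median of -0.14 beside 0.27 for all genes, of which 53.6% were called (29.7% higher, 23.9% lower). Rpl10 and Rpl30 had no counts in these SC libraries and passed the low-count filter only through RS. Rpl10 is among the 15, and neither fold is given. The split moved with the scaling, to 18 higher and 20 lower with RLE factors, 17 and 18 with total counts, and 6 and 40 after GC correction, where the median was -0.58 and 56.8% of all genes were called. Rpl14 was 8.28, 10.7 and 7.42 CPM in RS and 52.7, 58.7 and 57.9 in SC (log2 fold change -2.63, SE 0.17, adjusted p = 9.29e-05). Rpl4, whose loop lines the peptide tunnel, was 306, 281 and 303 in RS and 789, 650.5 and 809 in SC (log2 fold change -1.29, SE 0.10, adjusted p = 0.000174). Both were lower in RS in every library. Rpl35 was 40.99, 55.6 and 46.1 CPM in RS and 11.8, 8.23 and 14.8 in SC (log2 fold change 2.09, SE 0.25, adjusted p = 0.000816), Rpl38 17.6, 20.01 and 22.5 in RS and 7.86, 7.09 and 10.1 in SC (log2 fold change 1.31, SE 0.20, adjusted p = 0.00201) and Rps2 31.9, 34.8 and 35.2 in RS and 18.2, 22.1 and 17.9 in SC (log2 fold change 0.86, SE 0.13, adjusted p = 0.00232). After the GC correction Rps2 was at 0.05 (adjusted p = 0.855). Whether CM and CTCF HET differ by unequal amounts in RS and SC was tested as an interaction, which called none of 77 members in edgeR (0.0499% of all genes), with 22 (28.6%) at an unadjusted p below 0.05 against 16.1% of all genes, while DESeq2 called Rpl14 and Rpl23 higher and Rpl11 and Rpl35 lower (2.56%).

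BORIS and CTCF peaks lay at many of these promoters in WT testis. Within 1 kb of a start, 21 of 79 members (26.58%, exact 95% interval 17.27 to 37.72) had a BORIS peak, against 13.8% of all genes, and 41 (51.9%, 40.36 to 63.29) a CTCF peak, against 27.1%. Nearly all member promoters carried marks of activity in WT. An H3K4me3 peak lay at 77 of 79 (52.5% of all genes) and a Pol2 peak at 76 (40.2% of all genes). Among genes with H3K4me3 the shares were 26.0% of members against 21.6% of genes for BORIS and 51.9 against 38.3% for CTCF. There is 1 list per antibody and genotype, so these shares carry counting error only. Of the 21 BORIS peaks 19 met a CTCF peak at the same gene, and Rpl32 and Rps10 had BORIS alone. In CM testis 16 members (20.25%) had a CTCF peak within 1 kb of a start, against 9.57% of all genes. All 16 also had one in the WT list, which overlapped the CM peak by at least 1 base at 15 of them and not at Rps20, and 25 members, Rps4x and Rpl36a among them, had one only in WT. Peaks were fewer in CM over all genes too, with a CTCF peak within 1 kb at 5961 genes in WT and 2103 in CM. The lists differ in size (34625 CTCF peaks in WT, 21525 in CM), so a peak missing from one list may lie below its threshold. Of the X-linked members, Rpl36a had BORIS and CTCF peaks, Rps4x a CTCF peak, Rpl10 and Rpl39 neither, and Rps4x had no Pol2 peak in WT or CM.

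**Figure D5:**
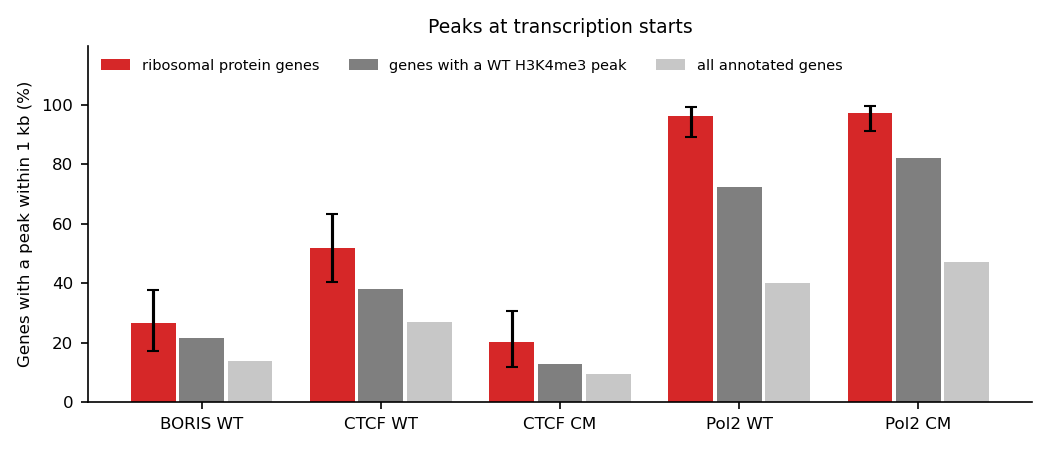
Share of genes (percent, vertical axis) with a peak within 1 kb of a start, for each peak list, among the 79 annotated members (with exact 95% intervals), genes with an H3K4me3 peak in WT, and all genes. Members exceed all genes in each list, and for BORIS the member interval, 17.27 to 37.72%, includes the 21.6% of H3K4me3 genes.

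Among the strongest BORIS summits at members were those at Rpl10a (height 1067, chr17:28465204-28465603, mm9), Rplp0 (757), Rpl5 (611), Rps3a (486) and Rpl26 (407). The median at members was 127, against 83.5 over all 7652 BORIS peaks and 99 for BORIS peaks at genes. Heights are pileup signals as deposited. Lower summits, in falling order of height, included those at Rpl36, Rps20, Rpl36a, Rps14, Rpl38, Rpl32, Rpl23a, Rps12, Rpl13a, Rps10, Rpl24, Rpl22, Rpl7 and Rpl37. A core of the CTCF motif, taken as the word AGGGGGC or the variants written as AGGTGGC or else as AGATGGC or lastly as AGAGGGC, on either strand and from 50 bp before to 50 bp after the summit, stood in 6 of the 21 (28.6%), against 59.8% of all BORIS peaks and 55.4% of all WT CTCF peaks. The 6 are shown because they place the core near the start of a ribosomal protein gene. Coordinates are mm9, and capitals mark the core.
Rplp0 (chr5:116009293-116009321, plus strand): tccgacccagcAGAGGGCagcaggtctga
Rpl5 (chr5:108329478-108329506, plus strand): ctcctaccggcAGGGGGCgatagcccgcg
Rps20 (chr4:3762891-3762919, minus strand): gccgagaggccAGAGGGCgcgcgcgcgtc
Rpl38 (chr11:114529766-114529794, plus strand): tctgaaccagaAGAGGGCagggctgctga
Rpl13a (chr7:52391855-52391883, minus strand): ttgttaccactAGGTGGCgtgtcccgccc
Rpl7 (chr1:16095231-16095259, plus strand): cgaccctcagcAGGGGGCgtgagccgcga
The rest of the summits, Rpl10a included, held none of these 4 words, which says only that these letters are not in the window.

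The RNA changes of members with and without peaks overlapped. In BORIS KO SC 12 of the 19 tested members with a BORIS peak rose and none fell, with a median log2 fold change of 0.49. Of the 21 with a CTCF peak only, 18 rose and 2 fell (median 0.75), and of the 35 with neither, 22 rose and 3 fell (0.37). After GC correction the medians were 0.34, 0.44 and 0.32. In the BORIS KO RS described above they were 0.67, 1.08 and 0.66. These are descriptions of groups of genes that share libraries.

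Other genes of the translation machinery moved in both directions. For BORIS KO SC the shares of all genes were 29.1% higher and 28.1% lower. In BORIS KO SC, mitochondrial ribosomal protein genes, which build the separate ribosome of mitochondria, had 44 of 76 higher and 10 lower (median 0.31), with Mrps12 (1.59) and Mrpl38 (0.67) higher and Mrps15 (-0.81) and Mrpl1 (-0.79) lower, all as log2 fold changes. After GC correction 37 were higher and 11 lower, where 40.8% of all genes were called. Of 14 genes for translation factors and other TOP mRNAs 5 rose, Eef2 (0.61) and Eif3f (0.57) among them, and 4 fell, with the poly(A)-binding protein gene Pabpc1 at -0.79 and Npm1 at -0.91. Of 20 ribosome biogenesis genes 6 rose (Rrp9, 1.91) and 6 fell (Nop58, -0.95), and of 7 ribosomal protein and ribosome-associated genes whose symbols the rule misses, 4 rose (Rpsa, 0.71, and Rpl36al, 0.65) and 2 fell (Rpl22l1, -0.63, and Fau, -0.17). The TOP and biogenesis counts lay near the shares of all genes. In the SC libraries labelled CTCF HET, these lists gave 4 higher and 8 lower of 75 mitochondrial, 3 and 2 of 14 TOP, none and 3 of 20 biogenesis and none and 1 (Gnb2l1) of 7 other genes. Of all genes 6.77% were higher and 8.76% lower there.

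In CM testis against WT, 4 of 20 biogenesis genes rose, with X-linked Dkc1 at 1.72 (0.0164 adjusted p) and Polr1b at 1.22, while of the TOP list 1 of 13, Eef1d, fell (-1.26). Of the mitochondrial list 2 of 76, Mrps16 and Mrps24, rose, and of the 7 genes outside the rule Gnb2l1 rose (0.81). Of all genes 16.4% were higher and 8.8% lower, so the biogenesis count lay near that share. Against CTCF HET it was Dkc1 and Ncl higher, Mrpl23 higher and Eef1d lower, where 10.6% of all genes were higher and 4.88% lower. Between RS and SC the mitochondrial list had 8 higher and 28 lower in RS of 75 in CTCF HET and 1 and 17 of 75 in CM. The biogenesis list had 5 and 5 of 20 in CTCF HET and 4 and 2 in CM, the TOP list 3 and 5 of 14 and then 1 and 2, and the genes outside the rule none and 5 of 7 and then none and 1. Of all genes 29.7% were higher and 23.9% lower in RS in CTCF HET, and 16 and 11.9% in CM.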

How the data were processed

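RNA-seq counts per gene in mm9 were deposited by the authors in 2 tables, 1 of whole testis (rRNA-depleted, TopHat2 and Bowtie2) and 1 of sorted RS and SC (poly(A), STAR); the counting tool, its annotation, strand setting and treatment of multiple matches are not given in the sources used here. Peak lists deposited by the authors (Bowtie2, MACS, PeakSplitter) hold summit heights as a pileup signal for CTCF and BORIS and a peak score for Pol2 and H3K4me3. The members, gene lists and tests were chosen with earlier results of these data known.

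Counts were tested with edgeR 4.0.16 (R 4.3.3; TMM factors, filterByExpr with a minimum count of 10 and total of 15, robust quasi-likelihood test, Benjamini-Hochberg over all tested genes, called at an adjusted p below 0.05), on the libraries of the 2 groups compared. The 3 to 7 members that failed the filter, always Rpl26 and otherwise from among Rpl3l, Rpl10, Rpl30, Rpl34, Rpl36a, Rpl39, Rps4x and Rps27, had no test there. SE is the absolute log2 fold change divided by the square root of the F statistic of its test. GC correction subtracted a lowess curve (span 0.3) of log counts on transcript GC in each library. Alternatives were RLE factors, total counts, no filter, all groups in 1 fit, a replicate block, DESeq2 1.42.0, a stricter threshold (adjusted p below 0.001, over 2-fold) and leaving out each library. Same-numbered whole testis libraries deviated together in all 18 pairs (correlation 0.113 to 0.621), so the block is given beside some of those results. In RS same-numbered libraries did so in 4 of 18 pairs, in SC in 1 of 15. No replicates agreed within sampling noise. Named members were the X-linked ones and those with a symbol ending in l, in each comparison the 3 higher and 3 lower called members of smallest adjusted p, the 5 highest and 3 lowest in BORIS KO RS, the 5 highest and 3 lowest per kb in WT testis, those with a BORIS peak, those failing the filter, and up to 2 called genes per list and direction, besides Ctcf and Ctcfl; the values of some members that this rule names are not reported here. Genome matches used BLAST 2.17.0, and the scripts were tested on simulated counts.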

Additional observations from a re-analysis of the deposited data

Results flagged for a closer look

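The values here are differences between cell preparations in the log2 fold change of 1 member. In each, every library of 1 preparation moved one way against WT, or against CTCF HET where said, and every library of the other preparation moved the opposite way. For the comparisons against WT the difference itself was not tested. Members were picked for this pattern, and the share of all genes that show it is not given here. Full separation was common in single comparisons: in BORIS KO SC 37.3% of all genes lay above WT and 35.5% below. Differences that use WT or BORIS KO RS rest on libraries that the choice of genes used.

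For CTCF HET against WT, RS minus SC, the difference was -1.34 in Rpl22 (-0.43 in RS, 0.91 in SC). It was positive in Rplp0 (1.46, from 0.21 in RS and -1.25 in SC), Rpl7a (1.84), Rpl8 (1.82), Rpl38 (2.24), Rps2 (1.43), Rps27a (1.27), Rpl11 (1.10) and Rpl13 (1.32). The SC libraries labelled CTCF HET had the fewest genes with counts, 12018 to 13406, and a transcript GC of 47.3%, against 48.1 to 48.5% in WT SC, while RS labelled CTCF HET had 48.2 to 48.97%, against 47.4 to 48.03% in WT RS. The part of these values in the differences was not tested.

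For BORIS KO against WT, whole testis minus RS was -1.0002 in Rplp0 and -0.95 in Rpl32, whole testis minus SC was -0.75 in Rpl32, and RS minus SC was -0.63 in Rpl22. For CM against CTCF HET, RS minus SC was 2.03 in Rpl14 and -1.07 in Rpl11, where the interaction test in edgeR called no member (Rpl14 adjusted p = 0.214) and DESeq2 called both.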

How the results depend on the processing

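Alternative values were counted for 31 results, each 1 named member in 1 comparison, most of them chosen because they were called. None of these 421 values changed direction, and 46 lost significance, 38 of them among the 173 that leave out 1 library. Other named folds are not covered by this count. Counts of members called moved as follows. With total counts they were 9 in CM against WT testis (33.1% of all genes called), 7 in CM against CTCF HET testis (24.9%) and 2 in CM RS against SC (26.4%). The member medians with total counts were 1.11 in BORIS KO against WT RS and -0.36 in BORIS KO RS against SC. Total counts moved the all-gene median by up to 0.43 (CM testis) and to 0.24 in BORIS KO SC, where the member median was 0.68. With all groups in 1 fit the counts were 7 (CM against CTCF HET testis, 29.1% of all genes), 15 (the same in RS, 15.4%), 8 (the same in SC, 10.4%) and 21 (BORIS KO SC, 14.5%). That fit also gave 17 (CM against WT SC, 13.1%), 37 (CM RS against SC, 49.8%) and 23 (interaction, 11.7%). DESeq2 gave 4 (CM against CTCF HET RS, 10.3% of all genes), 20 (CM against WT SC, 21.9%), 2 (CM against CTCF HET SC, 3.97%) and 4 (interaction, 2.56%). GC correction gave 18 (CTCF HET SC, 6.81% of all genes) and 2 (CM against WT SC, 2.75%). It gave 1 in CM against CTCF HET SC, where 29 of all genes were higher and 146 lower, and a median of 0.59 in BORIS KO RS. The stricter threshold gave 0 in CM against WT and against CTCF HET testis, 0 in CTCF HET SC, 5 in BORIS KO SC, 4 in CTCF HET RS against SC and 0 in CM RS against SC. Shares of all genes at this threshold are not given here. With the replicate block the counts were 4 in BORIS KO testis (6.59% of all genes) and 13 in CM against CTCF HET testis (43%). Block and GC correction gave 9 in BORIS KO testis, 10 in CM against WT testis and 14 in CM against CTCF HET testis. In CM against WT SC the block gave 1 (1 with GC correction), and the median in BORIS KO RS was 0.59 with block and GC correction. In sorted cells the numbers pair nothing, and the block gave 33 calls in CTCF HET SC and 56 in BORIS KO SC. Shares of all genes are not given here for the block in sorted cells or with GC correction. In the upper 50% of peak heights 13 members (16.46%) kept a BORIS peak, against 7.88% of all genes. There 21 members (26.58%) kept a WT CTCF peak, against 12.6% of all genes. Leaving out 1 library gave 0 to 20 (CM against WT testis), 0 to 16 (CM against CTCF HET testis), 0 to 15 (CM against CTCF HET RS), 0 to 31 (CTCF HET SC), 44 to 63 (BORIS KO SC), 0 to 45 (CM against WT SC), 28 to 35 (CTCF HET RS against SC), 1 to 17 (CM RS against SC) and 0 to 11 (interaction, 11 without CM RS replicate 1), medians of 0.68 to 0.81 in BORIS KO RS and of -0.54 to -0.41 in BORIS KO RS against SC. At the upper ends of these counts, in the same order, 24.1, 15.2, 20.9, 22.7, 64, 38.9, 58.6, 34.9 and 6.87% of all genes were called. The causes were not tested. Groups of 2 or 3 libraries limit every count, and members near 0 counts limit the named folds.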
